A study of Mus musculus with 24 samples.

Results

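The regions described here are 6034 gene ends of intermediate CpG density in mouse induced pluripotent stem (iPS) cells and the embryoid bodies made from them. Each region reaches 1000 bp out and in from the start or the end of an autosomal protein-coding gene, whichever held more CpG positions in the mm10 coordinates of the deposited table. Windows with 20 to 59 CpG positions and 30 or more calls in each of the 12 libraries were kept. They were 6034 of 20665 autosomal gene ends (29.2%), with 1974 at 20 to 29 CpGs, 1714 at 30 to 39, 1142 at 40 to 49 and 1204 at 50 to 59. A further 216 windows met the density and not the call minimum. Some windows shared DNA: 366 overlapped another one, in 215 pairs.

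Methylation was measured by whole-genome bisulfite sequencing after an oxidation step, which keeps 5-hydroxymethylcytosine from being read as 5-methylcytosine. The samples were wild-type iPS cells and the clones N5 and N9, named miR-203 KI in the labels and tKI in the design for a knock-in of the microRNA miR-203, all grown over feeder cells. The 4 stages were t=0 before doxycycline, day 10 (5 days after a doxycycline treatment of 5 days), day 25 (20 days after it) and embryoid bodies, the aggregates in which pluripotent cells differentiate. The labels name doxycycline for both genotypes at days 10 and 25. In embryoid bodies they name it for the clones and not for the wild type, so there genotype and drug cannot be told apart. Embryoid bodies were differentiated for 7 days per the series design and 10 days per the wild-type label. A stage is thus covered by 1 library of the wild type and 2 of the clones, so a spread over n = 2 is a spread between clones. The wild type, whose 2 deposited columns a stage were counted as 1 library, has no replicate.

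The level of a window is its methylated calls as a percent of all its calls. The median member had from 207 calls (wild type, day 25) to 410 calls (N5, day 25), and a member's least covered library had a median of 186 calls. N5 embryoid bodies and the N5 libraries of t=0 and day 25 came from another flow cell than the other 9, so N9 minus wild type is a difference within 1 flow cell. Chromosome 8 was covered 1.34 to 1.37 times as deeply as chromosome 5 in 6 of the 8 clone libraries, 1.10 times in N5 at day 10, 1.19 times in N9 embryoid bodies and at most 1.04 times in the wild type. The 312 members on chromosome 8 had a median change from t=0 to day 25 of -13.07 points, beside -13.73 for all members.

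In mammals DNA methylation sits mostly on cytosines of CpG pairs, where Dnmt1 with Uhrf1 copies it at replication and Dnmt3a and Dnmt3b place it anew. CpG islands at gene starts are as a rule free of methylation whatever the gene does, and CpG-poor DNA is as a rule methylated. Gene starts of intermediate density lie between these states and are known to differ in methylation between tissues and between germ cells and body cells.

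To show what intermediate density looks like, the 250 bases upstream of the annotated start are given for a member with a large fall from t=0 to day 25 in each density class. The largest fall was taken, or the next one where the reference table held no start inside the window. Sequences are from RefSeq (build GRCm38.p6), 5′ to 3′ on the strand of the gene, with each CG in capitals.
Ceacam19: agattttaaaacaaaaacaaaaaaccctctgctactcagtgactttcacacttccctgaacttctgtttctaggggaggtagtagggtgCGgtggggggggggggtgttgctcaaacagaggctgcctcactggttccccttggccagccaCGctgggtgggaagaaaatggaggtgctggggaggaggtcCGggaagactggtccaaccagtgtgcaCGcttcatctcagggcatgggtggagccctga
Casq2: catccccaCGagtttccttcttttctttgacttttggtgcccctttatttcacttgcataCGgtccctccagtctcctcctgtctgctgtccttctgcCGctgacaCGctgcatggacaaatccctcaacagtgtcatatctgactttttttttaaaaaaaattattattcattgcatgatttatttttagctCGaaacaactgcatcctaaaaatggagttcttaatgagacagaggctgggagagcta
Gm37116: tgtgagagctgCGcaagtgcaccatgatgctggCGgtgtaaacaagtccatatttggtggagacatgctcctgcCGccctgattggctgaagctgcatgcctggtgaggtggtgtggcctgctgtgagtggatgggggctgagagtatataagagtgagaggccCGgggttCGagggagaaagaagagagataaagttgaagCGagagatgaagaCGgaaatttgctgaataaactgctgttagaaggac
Tex19.1: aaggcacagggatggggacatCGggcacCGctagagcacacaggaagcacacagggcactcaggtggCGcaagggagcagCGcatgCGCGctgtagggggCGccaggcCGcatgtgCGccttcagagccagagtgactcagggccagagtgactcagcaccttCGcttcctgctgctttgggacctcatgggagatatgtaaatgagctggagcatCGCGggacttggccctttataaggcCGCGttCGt
Ceacam19 (chr7:19887966-19888215, minus strand) belongs to the carcinoembryonic antigen family and has 4 CGs in these bases. Casq2 (chr3:102086165-102086414, plus strand), which encodes the calcium store protein calsequestrin of heart muscle, has 5. Gm37116 (chr3:88284799-88285048, minus strand), a predicted gene whose window lies at its 3′ end and also holds its start, has 7. Tex19.1 (chr11:121145893-121146142, plus strand), a germ cell gene that restrains retrotransposons, has 15.

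The next set, chosen by the same rule for the rise from t=0 to embryoid bodies, was added after the values were seen.
Nhlh2: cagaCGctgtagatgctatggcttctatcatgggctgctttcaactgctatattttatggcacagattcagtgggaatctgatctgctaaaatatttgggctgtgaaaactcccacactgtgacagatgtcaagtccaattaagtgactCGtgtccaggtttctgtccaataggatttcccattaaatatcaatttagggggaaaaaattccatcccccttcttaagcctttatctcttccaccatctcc
Cavin2: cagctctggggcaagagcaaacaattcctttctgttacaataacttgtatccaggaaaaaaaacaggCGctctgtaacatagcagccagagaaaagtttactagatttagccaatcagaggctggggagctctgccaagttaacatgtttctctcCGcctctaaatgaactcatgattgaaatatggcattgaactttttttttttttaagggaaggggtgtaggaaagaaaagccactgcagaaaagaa
Hormad2: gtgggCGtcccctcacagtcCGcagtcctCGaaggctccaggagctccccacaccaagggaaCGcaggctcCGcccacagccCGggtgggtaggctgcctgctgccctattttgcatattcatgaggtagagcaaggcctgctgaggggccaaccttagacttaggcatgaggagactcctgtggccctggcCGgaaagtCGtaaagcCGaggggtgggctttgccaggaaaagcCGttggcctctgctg
Tacr2: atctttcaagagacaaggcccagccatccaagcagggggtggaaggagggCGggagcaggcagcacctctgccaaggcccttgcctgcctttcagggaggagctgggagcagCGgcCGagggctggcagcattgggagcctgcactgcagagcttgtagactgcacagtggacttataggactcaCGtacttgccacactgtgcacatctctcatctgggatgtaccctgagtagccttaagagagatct
Nhlh2 (chr3:102009895-102010144, plus strand), which encodes a neuronal helix-loop-helix factor, and Cavin2 (chr1:51288876-51289125, plus strand), which encodes a caveolar coat protein, have 2 CGs each. Hormad2 (chr11:4441083-4441332, minus strand), a gene of the meiotic chromosome axis, has 10, and Tacr2 (chr10:62252188-62252437, plus strand), the neurokinin A receptor gene, has 4. Both sets hold starts with few CGs and starts with many.

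Levels at t=0 ran from mostly methylated to mostly unmethylated across this range of densities. In N5 and N9 the median was 70.7% and 70.8% at 20 to 29 CpGs, 58.4% and 58.9% at 30 to 39, 25.3% and 25.6% at 40 to 49, and 12.5% and 12.1% at 50 to 59. The wild-type medians were 66.1%, 53.5%, 22.4% and 10.2%. The mean of the clone medians was 73.04% over 1932 sparser ends of 5 to 19 CpGs and 3.51% over 10609 ends of 60 or more. The largest step between neighbouring classes thus lay between 30 to 39 and 40 to 49 CpGs. Medians and shares by class describe the windows and carry no test.

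At the edges of the range, ends of 19 CpGs, just outside, had a median of 73.5% in N5 at t=0, and ends of 20 CpGs, just inside, 75.2%. Ends of 59 CpGs were at 10.6% and ends of 60 at 11.8%. The other, sparser end of the same genes had a median of 18, 22, 23 and 24 CpGs from the lowest class to the highest. Its level differed little between the classes. Over 5055 members in genes longer than 2000 bp, whose other end also met the call minimum, its median in N5 at t=0 was 72.2%, 70.5%, 71.3% and 70.8% in the same order.

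The clones were lower at day 25 and higher in embryoid bodies, and the wild type was higher in embryoid bodies only. Over all members the N5 median went from 50.2% before doxycycline through 40.7% at day 10 and 32.1% at day 25 to 63.9% in embryoid bodies. That of N9 was 50.3%, 43.6%, 31.5% and 63.04%, and that of the wild type 44.5%, 45.2%, 45.2% and 60.1%. Both clones lay above the wild type at t=0, below it at day 25 and above it in embryoid bodies. Per window N5 and N9 differed by a median of 3.08 to 3.76 points at a stage.

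**Figure D1:**
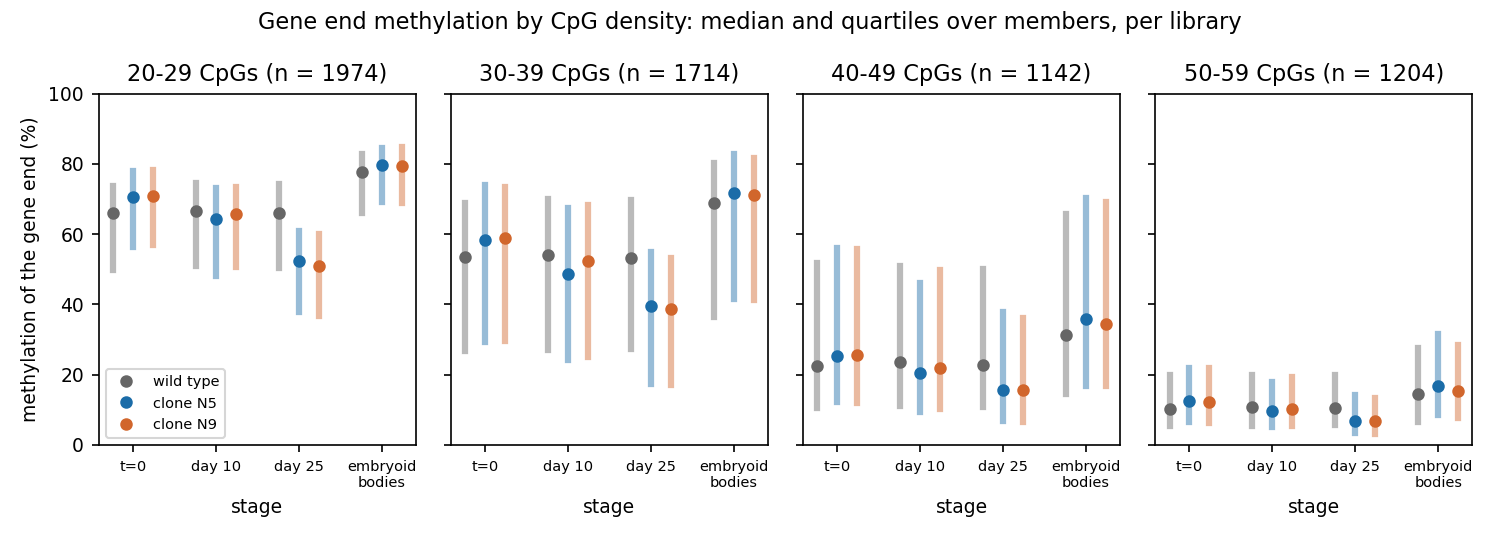
Methylation (percent of calls) of the members by density class and stage; points are medians and bars run from the lower to the upper quartile over members, for 1 library each of the wild type, N5 and N9. Both clones are lowest at day 25 in each class, at 52.5% and 50.99% for 20 to 29 CpGs and at 6.72% and 6.90% for 50 to 59, while the wild type stays level from t=0 to day 25.

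In points the change to day 25 was larger in the sparser classes, and as a share of the starting level it was larger in the denser ones. The median change was -16.58 points in N5 and -17.55 in N9 at 20 to 29 CpGs, and -4.84 and -4.67 at 50 to 59. The ratio of the day 25 median to the t=0 median was 0.74, 0.68, 0.62 and 0.54 in N5 and 0.72, 0.66, 0.61 and 0.57 in N9 from the lowest class to the highest. In the wild type this ratio was 1.0, 0.99, 1.01 and 1.03.

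Windows at gene starts were less methylated than windows at gene ends. The strand was known for 4690 members, of which 3212 windows lay at the 5′ end and 1478 at the 3′ end, and the 5′ share was 55.6%, 64.5%, 77.1% and 88.0% from the lowest density class to the highest. At t=0 the median 5′ window was at 31.2% in N5 and 31.5% in N9, and the median 3′ window at 71.4% and 70.8%. At day 25 the 5′ windows were at 19.3% and 18.7% and the 3′ windows at 51.6% and 50%. These medians pool density classes with unequal 5′ shares. In the class of 20 to 29 CpGs 878 5′ windows were at 66.5% and 66.7% at t=0 and 700 3′ windows at 74.2% and 74.8%. In the class of 50 to 59 CpGs 802 5′ windows were at 11.1% and 10.5% at t=0 and 109 3′ windows at 35.4% and 36.96%.

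Along the 5′ windows methylation dipped around the gene start, and its lowest step was lower in the class of 50 to 59 CpGs than in that of 20 to 29. With calls pooled over the 50 to 59 class, N5 at t=0 was at 52.7% in the 100 bp farthest upstream, 4.26% in the first 100 bp of the gene and 25.2% in the last 100 bp of the window. At day 25 and in embryoid bodies the first 100 bp were at 2.39% and 6.28%, and the upstream edge at 35.99% and 60.2%. In the class of 20 to 29 CpGs the same library had 67.9% at the upstream edge and 46.2% in the 100 bp before the start. The 3′ windows of that class had no such dip, with 67.97% at the outer edge and 73.4% in the 100 bp next to the gene end.

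**Figure D2:**
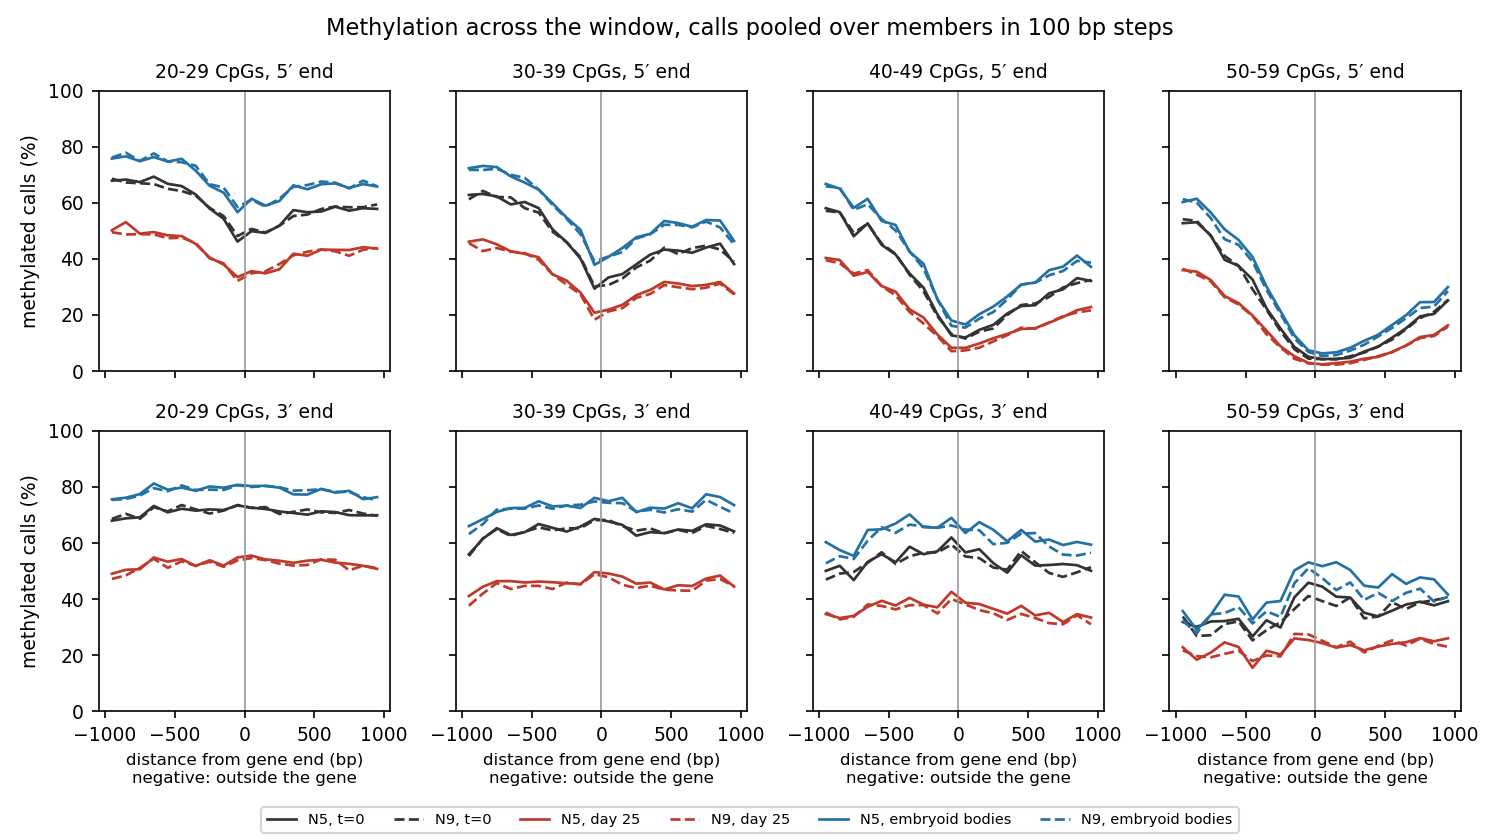
Methylated calls (percent, pooled over members in 100 bp steps) against distance from the gene start (upper panels) or gene end (lower panels) in bp, with negative distances outside the gene, for iPS cells of N5 and N9 at t=0 and day 25 and their embryoid bodies. The 5′ windows of 50 to 59 CpGs fall to 4.26% just inside the gene in N5 at t=0, those of 20 to 29 CpGs to 46.2% just before it, and day 25 lies below t=0 in all panels.

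Members were also split by their mean level over the 4 wild-type libraries. There were 1740 members under 20% (28.8%), 1842 from 20% to under 60% (30.5%) and 2452 at 60% or more (40.6%). The ratio of the day 25 to the t=0 median was 0.53 and 0.54 (N5 and N9) in the lowest group, 0.62 and 0.6 in the middle group and 0.75 and 0.74 in the highest. Within the middle group the N5 ratio was 0.63, 0.62, 0.62 and 0.61 from the lowest density class to the highest, a narrower range than over all members. From t=0 to embryoid bodies the middle group had a median change of 11.64 points in N5, 10.73 in N9 and 12.25 in the wild type. The highest group had 7.8, 7.31 and 10.22, and the lowest 3.1, 2.75 and 2.44.

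**Figure D3:**
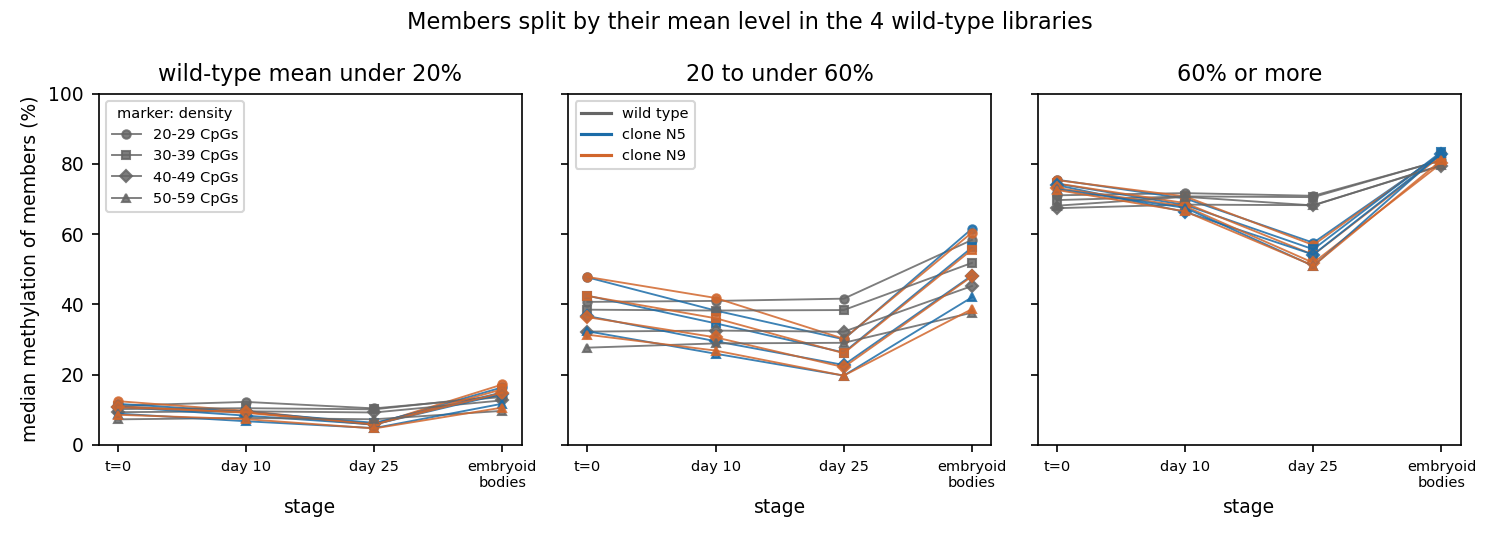
Median methylation (percent of calls) over members by stage, in 3 panels for a wild-type mean under 20%, from 20% to under 60% and of 60% or more; colours mark the wild type, N5 and N9, markers the density class, and each point is 1 library. At day 25 the clones dip in each panel, to 0.53 and 0.54 of their t=0 median in the first and 0.75 and 0.74 in the last.

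Single windows were tested on methylated and unmethylated calls with edgeR's quasi-likelihood test, fitted over 20320 gene-end windows of all densities. Benjamini-Hochberg adjustment and a threshold of 0.05 were used. Shares of all windows refer to these 20320, which take in chromosome X and windows under the members' call minimum, while the members are autosomal. From t=0 to day 25 3924 of 6034 members fell (65.03%) and 0 rose, where 40.2% of all windows fell and 0.0148% rose. By density class 1488, 1246, 671 and 519 members fell (75.4%, 72.7%, 58.8% and 43.1%), beside 51.6% of ends with 5 to 19 CpGs and 26.5% of ends with 60 or more. The fall passed in 58.1% of 5′ windows and 81.8% of 3′ windows, pooled over classes in which the 5′ share differs. From the lowest density class to the highest it passed in 71.1%, 66.2%, 52.0% and 40.6% of 5′ windows. In 3′ windows it passed in 79.6%, 87.6%, 83.7% and 67.9%. Median calls in the least covered library were 126, 182, 235 and 289 by density class, and the part of depth in these shares was not tested.

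The change was common to gene ends of all densities. The median of all windows moved by -0.98 in log2 odds of methylation, and 5940 of 6034 members had a log2 odds below 0, with a median of -1.11. Relative to the median of each library, in a limma fit of centred logit values, 4308 members were lower and 1725 higher, with a median of -0.26. In that fit 0 members passed and 773 had an unadjusted p under 0.05, and 4566 had one in edgeR. The edgeR count was 2459 without the t=0 library of N5, 2431 without the t=0 library of N9, 2400 without the day 25 library of N5 and 2362 without the day 25 library of N9.

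Large falls were found in each density class. Ceacam19 (chr7:19886990-19888990, 5′ end, 25 CpGs) was at 53.5%, 23.6%, 18.5% and 65.1% in N5 at the 4 stages in order, at 64.4%, 46.5%, 17.02% and 54.9% in N9 and at 43.95%, 46.4%, 29.6% and 52% in the wild type. Both clones were lowest at day 25 and lay below the wild type there. The clone mean fell from 58.9% ± 7.68 to 17.7% ± 1.01 (SD, n = 2, edgeR adjusted p = 0.0001407). Casq2 (chr3:102085415-102087415, 5′ end, 33 CpGs) was at 59.5%, 53%, 29.8% and 70.99% in N5 at the 4 stages in order, at 65.2%, 51.9%, 17.4% and 71.1% in N9 and at 40.7%, 39.3%, 45.4% and 33.8% in the wild type. The wild-type embryoid bodies did not share the high level of the clones. The clone mean fell from 62.4% ± 4.03 to 23.6% ± 8.71 (SD, n = 2, edgeR adjusted p = 0.00014).

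Gm37116 (chr3:88283402-88285402, 3′ end, 40 CpGs) was at 64.4%, 26.9%, 18.5% and 60.98% in N5 at the 4 stages in order, at 51%, 58.8%, 17.7% and 58.1% in N9 and at 19.8%, 24.2%, 30.8% and 22.1% in the wild type. The clones were near each other at day 25 and in embryoid bodies and far apart at day 10, and the wild type stayed low. The clone mean fell from 57.7% ± 9.47 to 18.1% ± 0.54 (SD, n = 2, edgeR adjusted p = 0.0002698). Tex19.1 (chr11:121145143-121147143, 5′ end, 52 CpGs) was at 60.1%, 43.2%, 28.8% and 67.4% in N5 at the 4 stages in order, at 58.6%, 51.7%, 20.9% and 54.1% in N9 and at 47.1%, 53.9%, 41.7% and 52.8% in the wild type. Day 25 was the lowest stage in all 3 lines. The clone mean fell from 59.4% ± 1.06 to 24.9% ± 5.53 (SD, n = 2, edgeR adjusted p = 0.0003026). Msln, the mesothelin gene, Ldlrad2, Bnip5 and Wdr88 were also among the largest falls of their classes, at -41.22, -39.53, -38.37 and -32.05 points.

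At day 10 the median change from t=0 was -4.58 points in N5, -3.4 in N9 and 0.38 in the wild type. In edgeR 8 members fell and 0 rose, where 0.0541% of all windows, chromosome X among them, fell and 0.143% rose. Of autosomal ends with the members' call minimum, 0 rose at 5 to 19 CpGs and 0 at 60 or more, and 0 and 3 fell. The 8 members were Bbc3, Ifng, Krtap22-2, Lefty2, Magi2, Nin, Olfr1166 and Tmem40. The count of members was 1 without the t=0 library of N5, 1 without the t=0 library of N9, 0 without the day 10 library of N5 and 15 without the day 10 library of N9, and 0 with chromosomes 8 and X left out of the fit. Ifng (chr10:118444894-118446894, 3′ end, 35 CpGs, the interferon gamma gene) was at 73.8%, 44.3%, 42.9% and 72.4% in N5 at the 4 stages in order, at 66.9%, 42.2%, 35.7% and 73.99% in N9 and at 64.3%, 63.5%, 71.9% and 75% in the wild type. Both clones were low at days 10 and 25, where the wild type was above both. Magi2 (chr5:20703792-20705792, 3′ end, 25 CpGs, a synaptic scaffold gene) was at 50%, 25%, 20.9% and 36.3% in N5 at the 4 stages in order, at 49.4%, 23.7%, 20.1% and 43.9% in N9 and at 38.6%, 36.3%, 45% and 43.7% in the wild type. The clones again moved together.

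The day 10 changes were -27.07 points at Ifng (edgeR adjusted p = 0.02372), -25.36 at Magi2 (0.03971), -28.38 at Tmem40 (0.04044) and -31.46 at the odorant receptor gene Olfr1166 (0.02417). Without any 1 of the 4 clone libraries compared, the adjusted p was 0.1031 to 0.3082 at Ifng and 0.1431 to 0.2607 at Magi2. Tmem40 lost its call without either t=0 library or N5 at day 10 (0.212 to 0.3763), and Olfr1166 without N9 at t=0 or either day 10 library (0.1242 to 0.3096). Olfr1166 had clones far apart at t=0, 16.4% and 51.5%, and as few as 32 calls in a library. In limma, Ifng, Magi2 and Tmem40 lost their calls (adjusted p from 0.07223 to 0.1352). With the replicate block and a flow cell term together, Ifng, Magi2 and Tmem40 lost their calls (adjusted p from 0.1523 to 0.508). In 500 bp windows, Magi2 and Tmem40 lost their calls (adjusted p from 0.1578 to 0.6305). In 2000 bp windows, Magi2, Olfr1166 and Tmem40 lost their calls (adjusted p from 0.1734 to 0.3579). Without chromosomes 8 and X, Ifng, Magi2, Olfr1166 and Tmem40 lost their calls (adjusted p from 0.1016 to 0.1324).

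From day 25 to embryoid bodies 5531 of 6034 members rose (91.7%) and 0 fell, where 0.00492% of all windows fell and 74.6% rose. By density class 96.96%, 94.5%, 90.3% and 80.3% rose. The median change was 21.76 points in N5, 21.97 in N9 and 7.95 in the wild type. The median of all windows moved by 1.52 in log2 odds, and in the centred limma fit 130 members passed, 129 of them higher. This comparison and the fall to day 25 share the day 25 libraries.

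Spic (chr10:88682023-88684023, 5′ end, 23 CpGs, a macrophage transcription factor gene) was at 50.5%, 49.2%, 24.6% and 76.8% in N5 at the 4 stages in order, at 50.4%, 48.7%, 12.2% and 82.1% in N9 and at 60%, 55.3%, 64.04% and 86.2% in the wild type. The day 25 dip was in the clones and not in the wild type. The clone mean rose from 18.4% ± 8.73 to 79.5% ± 3.76 (SD, n = 2, edgeR adjusted p = 6.6e-08). Mb, the myoglobin gene (chr15:77049668-77051668, 5′ end, 33 CpGs), went from 20.5% and 13.2% at day 25 to 75.7% and 65.9% in embryoid bodies of N5 and N9, and was at 46.3% and 66.96% in the wild type. The other members named by size were S100a14, Klf17, Cyp2u1, Hormad2, Tacr2 and Spatc1l, with rises of 45.67 to 56.63 points.

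**Figure D4:**
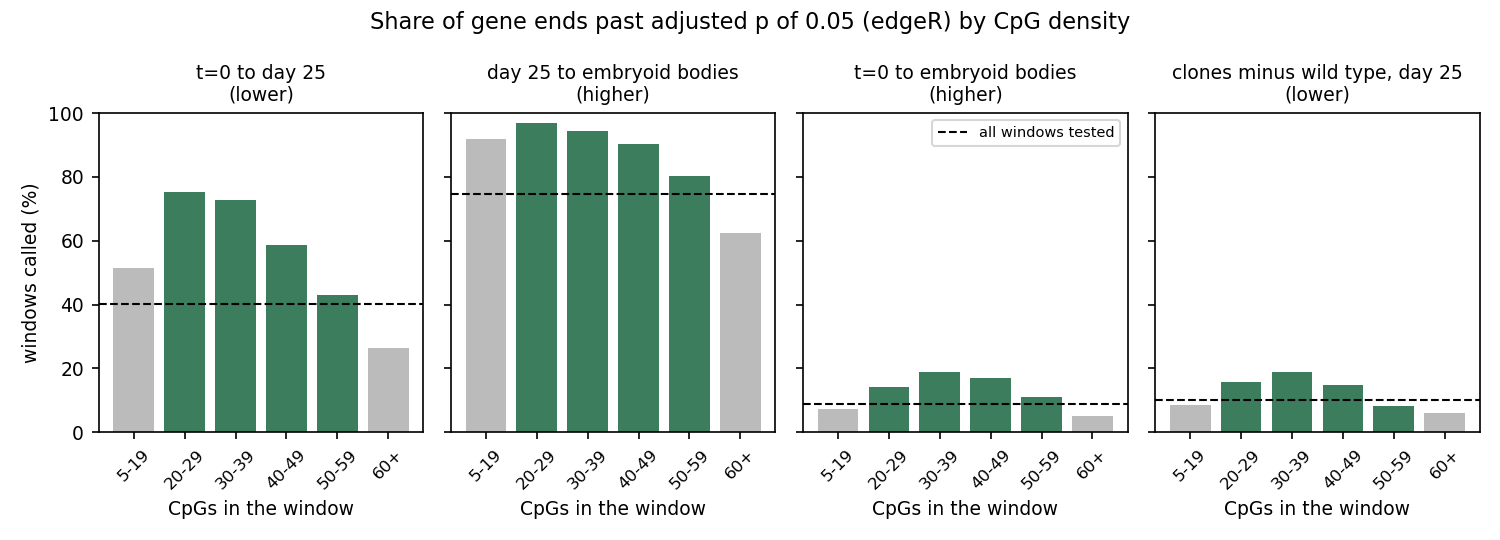
Percent of gene ends past an adjusted p of 0.05 in edgeR by CpGs in the window, in 4 comparisons; green bars are the members, grey bars sparser and denser gene ends, and the dashed line all windows tested. The share that fell to day 25 goes from 75.4% at 20 to 29 CpGs to 43.1% at 50 to 59, against 40.2% of all windows.

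Compared with t=0, 933 members rose in embryoid bodies of the clones and 3 fell, where 0.0394% of all windows fell and 8.92% rose. By density class 14.2%, 18.9%, 17.1% and 11.1% rose, beside 7.25% at 5 to 19 CpGs and 5.22% at 60 or more. The median change was 7.13 points in N5, 6.63 in N9 and 8.25 in the wild type. All windows moved by 0.53 in log2 odds, and 0 members passed in the centred limma fit, 778 having an unadjusted p under 0.05 there. The edgeR count was 246 without the t=0 library of N5, 252 without the t=0 library of N9, 191 without the embryoid body library of N5 and 378 without the embryoid body library of N9.

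Ldb2 (chr5:44798759-44800759, side not known, 27 CpGs, a LIM domain binding factor gene) was at 12.8%, 27.2%, 21.3% and 59.4% in N5 at the 4 stages in order, at 25%, 23.7%, 14.6% and 62.6% in N9 and at 30.3%, 23.8%, 29% and 54.5% in the wild type. All 3 lines were highest in embryoid bodies. The clone mean rose from 18.9% ± 8.62 to 60.98% ± 2.27 (SD, n = 2, edgeR adjusted p = 0.0002272). Hormad2 (chr11:4440198-4442198, 5′ end, 48 CpGs) was at 22.8%, 19.8%, 20.3% and 62.2% in N5 at the 4 stages in order, at 24.1%, 21.4%, 8.59% and 66.7% in N9 and at 34.4%, 33.9%, 22.7% and 60% in the wild type. Embryoid bodies again stood above the other stages in all lines, and the clone mean rose by 40.98 points (edgeR adjusted p = 0.0002272). Nhlh2 (chr3:102009111-102011111, 5′ end, 29 CpGs) was at 31.6%, 33.01%, 28.5% and 68.8% in N5 at the 4 stages in order, at 32.7%, 46.6%, 38.04% and 66.7% in N9 and at 20.1%, 26.1%, 27.5% and 58.2% in the wild type. Its clones differed most at day 10.

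Cavin2 (chr1:51288126-51290126, 5′ end, 37 CpGs) was at 37.6%, 53.5%, 39.9% and 79.2% in N5 at the 4 stages in order, at 38%, 47.3%, 33.6% and 72.7% in N9 and at 43%, 29.7%, 55.8% and 68.3% in the wild type. Nhlh2 rose by 35.56 points from t=0 to embryoid bodies and Cavin2 by 38.11 (edgeR adjusted p = 0.0005887 and 0.0003769). Vwde, Tmem233, Tacr2 and Nckap5 rose by 32.16 to 37.43 points. The falls were at Ssc4d, 4930548H24Rik and Bnip5, with changes of -20.16, -19.15 and -26.55 points. Without any 1 of the 4 clone libraries the adjusted p was 0.05034 to 0.2563 at Ssc4d and 0.06626 to 0.1547 at 4930548H24Rik. Bnip5 lost its call without N5 at t=0 (0.06241) or N5 embryoid bodies (0.05751). In limma, 4930548H24Rik and Ssc4d lost their calls (adjusted p from 0.05918 to 0.07338). In 500 bp windows, Ssc4d lost its call (adjusted p = 0.4708). In 2000 bp windows, 4930548H24Rik and Nhlh2 lost their calls (adjusted p from 0.1041 to 0.1079).

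Against the wild type at t=0, 10 members were higher in the clones and 2 lower, where 0.423% of all windows were lower and 0.113% higher. All windows include chromosome X and windows with fewer calls. Of autosomal ends with the members' call minimum, 0.0% at 5 to 19 CpGs and 0.01% at 60 or more were lower. Higher were 0.0% and 0.11% of them, beside 0.03% lower and 0.17% higher among members. Ank3, Cep162, Gm37116 and Tmem40 were among the higher members, and the lower members were Fam169a and Grin2b. Without either clone library Ank3, Cep162 and Grin2b lost their calls (adjusted p from 0.07732 to 0.2163, 0.1271 to 0.2401 and 0.07085 to 0.1862), and without N5 also Fam169a (0.2904), Gm37116 (0.1508) and Tmem40 (0.05055). The count was 0 without the t=0 library of N5 and 5 without the t=0 library of N9, and 0 without chromosomes 8 and X. Tmem40 (chr6:115728131-115730131, 3′ end, 23 CpGs) was at 60.3% and 58.6% in N5 and N9 and at 21.8% in the wild type (95% Wilson interval 16.5% to 28.1%, which covers counting error only). At day 10 the clones were at 26.6% and 35.6% and the wild type at 31.4%. With the clone as a replicate block Ank3 and Cep162 lost their calls (adjusted p = 0.08699 and 0.06905). In limma, Ank3, Cep162, Fam169a, Gm37116, Grin2b and Tmem40 lost their calls (adjusted p from 0.0612 to 0.2013). With the replicate block and a flow cell term together, Ank3, Cep162, Fam169a, Gm37116, Grin2b and Tmem40 lost their calls (adjusted p from 0.1419 to 0.975). In 500 bp windows, Ank3, Cep162 and Grin2b lost their calls (adjusted p from 0.3373 to 0.9564). In 2000 bp windows, Ank3, Fam169a, Grin2b and Tmem40 lost their calls (adjusted p from 0.141 to 0.5685). Without chromosomes 8 and X, Ank3, Cep162, Fam169a, Gm37116, Grin2b and Tmem40 lost their calls (adjusted p from 0.09119 to 0.1784). At 500 bp Grin2b turned to a log2 odds of 0.24.

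At day 10 the member that differed was Zdbf2, a gene of an imprinted locus, lower in the clones as 1 of 6034 members, where 0.0148% of all windows were lower and 0.0% higher. Zdbf2 (chr1:63199358-63201358, 5′ end, 56 CpGs) was at 28.8%, 24.9%, 22.3% and 32.02% in N5 at the 4 stages in order, at 18.99%, 11.9%, 30.4% and 17.9% in N9 and at 50.9%, 57.8%, 26.6% and 37.1% in the wild type. The wild-type libraries spanned a wider range than either clone. The edgeR adjusted p was 0.04802, 0.07722 with the replicate block and 0.1351 without N9 at day 10, where 4 members passed. In limma, Zdbf2 lost its call (adjusted p = 0.2786). With the replicate block and a flow cell term together, Zdbf2 lost its call (adjusted p = 0.07002). Without chromosomes 8 and X, Zdbf2 lost its call (adjusted p = 0.07449).

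At day 25 902 members were lower in the clones and 5 higher, where 10.2% of all windows were lower and 0.0492% higher. By density class 15.7%, 18.9%, 14.8% and 8.22% were lower. The median difference was -8.75 points for N5 and -9.32 for N9, the second within 1 flow cell. This comparison shares the day 25 clone libraries with the fall from t=0. The median of all windows was -0.77 in log2 odds, and in the centred limma fit 7 members were lower and 3 higher. The edgeR count in either direction was 439 without the day 25 library of N5 and 350 without the day 25 library of N9.

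Eps8l1 (chr7:4459638-4461638, 5′ end, 48 CpGs, an actin regulator gene) was at 40.95%, 37.3%, 13.9% and 41.8% in N5 at the 4 stages in order, at 28.1%, 28.2%, 20.5% and 25.2% in N9 and at 55.8%, 51.4%, 64.2% and 67.3% in the wild type. The clones were below the wild type at all 4 stages and the difference at day 25 was -46.99 points (edgeR adjusted p = 0.0003715). Sult2a4, a sulfotransferase gene (chr7:13988591-13990591, 5′ end, 39 CpGs), was at 12.1% and 10.8% at day 25 beside 60.5% from 38 wild-type calls (95% Wilson interval 44.7% to 74.4%). Mia2 was at 29.4% and 17.4% beside 71.9%, and 1700071K01Rik at 44.1% and 50.7% beside 85.6%. Higher in the clones were Col1a1, Gm52008, Il11ra1, Pdgfrb and Vcam1. Il11ra1, Pdgfrb and Vcam1 lost their calls without either day 25 clone library (adjusted p from 0.0729 to 0.1299, 0.07486 to 0.1272 and 0.09431 to 0.1094), and Vcam1 also with the replicate block (0.08073). In limma, Vcam1 lost its call (adjusted p = 0.05187). With the replicate block and a flow cell term together, 1700071K01Rik, Il11ra1, Mia2, Pdgfrb and Vcam1 lost their calls (adjusted p from 0.05618 to 0.3163). In 500 bp windows, Il11ra1, Pdgfrb and Vcam1 lost their calls (adjusted p from 0.1152 to 0.6968). In 2000 bp windows, Il11ra1, Pdgfrb and Vcam1 lost their calls (adjusted p from 0.07261 to 0.3078).

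In embryoid bodies 6 members were higher in the clones (Arl14epl, Car10, Casq2, Gm50595, Pou5f1 and Tspoap1) and 2 lower (Ccnb1ip1 and Snurf), where 0.0197% of all windows were lower and 0.0492% higher. The count was 3 without the embryoid body library of N5 and 4 without the embryoid body library of N9. Gm50595 (chr2:75632917-75634917, 5′ end, 39 CpGs) was at 28.6%, 20.7%, 8.01% and 37.5% in N5 at the 4 stages in order, at 28.2%, 11.95%, 4.98% and 46.6% in N9 and at 25.5%, 19.2%, 20.8% and 4.17% in the wild type. The lines parted in embryoid bodies, by 37.86 points (edgeR adjusted p = 4.618e-05). Snurf (chr7:60004199-60006199, 5′ end, 44 CpGs, at the imprinted Snrpn locus) was at 26.96%, 14.01%, 16.4% and 13.7% in N5 at the 4 stages in order, at 11.1%, 21.4%, 24.4% and 24.01% in N9 and at 38.3%, 49.3%, 61.3% and 58.1% in the wild type. The clones were below the wild type at all stages. The difference in embryoid bodies had an edgeR adjusted p of 0.03149, and 0.2564 without N5 embryoid bodies. Tspoap1 and Ccnb1ip1 lost their calls with the replicate block (adjusted p = 0.06228 and 0.05765). Without N9 embryoid bodies they had 0.1783 and 0.1616, and Ccnb1ip1 had 0.1357 without N5 embryoid bodies. In limma, Ccnb1ip1, Snurf and Tspoap1 lost their calls (adjusted p from 0.09935 to 0.215). With the replicate block and a flow cell term together, Arl14epl, Ccnb1ip1, Snurf and Tspoap1 lost their calls (adjusted p from 0.07266 to 0.3672). In 500 bp windows, Tspoap1 lost its call (adjusted p = 0.3627).

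The change between stages was compared between genotypes in the same fit, which tests the difference itself. From t=0 to day 10, 0 members differed in edgeR, where 0.00492% of all windows changed more negatively and 0.0295% more positively. Of autosomal ends with the members' call minimum, 0 at 5 to 19 CpGs and 0 at 60 or more changed more positively. In this comparison 478 members had an unadjusted p under 0.05, and limma called 0. From t=0 to day 25, 249 members changed more negatively in the clones, where 2.11% of all windows did and 0.0% more positively. That count was 72 without the t=0 library of N5, 74 without the t=0 library of N9, 70 without the day 25 library of N5 and 5 without the day 25 library of N9, and 0 in limma. From day 25 to embryoid bodies 472 members changed more positively and 1 less, where 0.0197% of all windows changed more negatively and 6.07% more positively. That count was 286 without the day 25 library of N5, 239 without the day 25 library of N9, 252 without the embryoid body library of N5 and 348 without the embryoid body library of N9. The median difference of the changes was -12.28 points for N5 and -12.79 for N9 to day 25, and 11.53 and 11.59 from there to embryoid bodies.

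Cell identity was followed at the gene ends of marker genes, as levels of methylation and not of expression. Of 27 pluripotency genes listed 13 were members, of which 10 fell to day 25, 10 rose from there to embryoid bodies and 2, Dppa3 and Esrrb, rose over t=0. Their median change was -11.1 points to day 25 and -0.18 from t=0 to embryoid bodies, beside -13.73 and 6.97 for all members. They started lower, with t=0 medians of 20.2% in N5 and 15.5% in N9, beside 50.2% and 50.3% for all members. In log2 odds their median to day 25 was -1.57, beside -1.11 for all members. In the centred fit it was -0.79, beside -0.26. Of all members 65.03%, 91.7% and 15.5% fell to day 25, rose from there and rose over t=0. Nanog (chr6:122706489-122708489, 5′ end, 34 CpGs, a core pluripotency gene) was at 10.8%, 11.8%, 3.04% and 8.60% in N5 at the 4 stages in order, at 10.02%, 9.17%, 0.790% and 14.6% in N9 and at 12.5%, 16.1%, 12.2% and 2.43% in the wild type. The clones were lowest at day 25, and the fall of the clone mean passed (edgeR adjusted p = 0.0009495). Lefty2 (chr1:180892108-180894108, side not known, 36 CpGs, a Nodal antagonist gene) was at 33.3%, 9.96%, 7.28% and 22.8% in N5 at the 4 stages in order, at 36.2%, 16.8%, 5.92% and 25.6% in N9 and at 20.5%, 22.6%, 23.2% and 15.7% in the wild type. Its change to day 25 was -28.16 points (edgeR adjusted p = 5.386e-05).

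Further pluripotency genes were chosen after their values were seen. Pou5f1 (chr17:35505032-35507032, 5′ end, 44 CpGs, the Oct4 gene) was at 28.6%, 27.2%, 27.1% and 35.04% in N5 at the 4 stages in order, at 31.2%, 28.3%, 20.5% and 29.8% in N9 and at 15.5%, 12.8%, 18.9% and 7.69% in the wild type. Both clones were above the wild type at each stage, and the difference passed in embryoid bodies (edgeR adjusted p = 0.0197), while the change to day 25 did not (edgeR adjusted p = 0.2745). Zfp42, the Rex1 gene, went in N5 and N9 from 14.3% and 11.2% through 3.43% and 5.67% at day 25 to 8.95% and 8.90% in embryoid bodies. Dppa4 was at 5.56% and 1.21% at day 25 in the clones and 31.5% in the wild type. In embryoid bodies the clones were at 19.6% and 11.02% and the wild type at 1.95%. Against the wild type at day 25, 8 of the 13 were lower, beside 14.95% of all members.

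Of 46 germline genes 20 were members and 25 had denser ends. Among the members 17 fell to day 25, 19 rose from there and 4 rose over t=0, and the median change to day 25 was -18.01 points. The same shares over all members were 65.03%, 91.7% and 15.5%, with a median of -13.73 points. Rec8 (chr14:55617002-55619002, 5′ end, 50 CpGs, a meiotic cohesin gene) was at 27.3%, 13.5%, 7.19% and 32.3% in N5 at the 4 stages in order, at 20.2%, 19.2%, 5.72% and 31.6% in N9 and at 17.7%, 23.1%, 21.1% and 34.6% in the wild type. The clones fell below the wild type at day 25, with a change from t=0 of -17.29 points (edgeR adjusted p = 0.000435). Hsf2bp, a meiotic recombination gene, was at 30.8% and 18.7% at t=0 and 10.2% and 1.81% at day 25. Asz1, Hormad2, Syce3 and Tdrd12, genes of the piRNA pathway and of meiotic chromosomes, were those that rose over t=0. Stag3 and Spo11 had values of -4.37 and -3.6 points to day 25 and did not pass (edgeR adjusted p = 0.394 and 0.3512).

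Of 20 genes of the methylation machinery 4 were members, and all 4 fell to day 25, beside 65.03% of all members. The share was 65.3% of members with a wild-type mean from 20% to under 60% and 83.7% of those at 60% or more. At t=0 the 4 had medians of 64.5% in N5 and 62.2% in N9. Dnmt1 (chr9:20906206-20908206, 3′ end, 41 CpGs, the maintenance methyltransferase gene) was at 74.1%, 69.9%, 60.3% and 86.4% in N5 at the 4 stages in order, at 79.9%, 73.8%, 53.2% and 77.03% in N9 and at 67.9%, 72.5%, 85.3% and 78.5% in the wild type. Its change to day 25 was -20.26 points (edgeR adjusted p = 0.005142), with an adjusted p of 0.06423 without N9 at t=0 and 0.05417 without N9 at day 25. Zfp57, which encodes a protector of imprints and whose window overlaps another member, was at 44.7% and 37.6% at t=0 and 15.3% and 9.68% at day 25. Dnmt3a and Dnmt3l, a de novo methyltransferase gene and that of its cofactor, changed by -16.49 and -18.67 points. Of 42 imprinted genes 10 were members, 6 fell to day 25, 10 rose from there and 0 rose over t=0, beside 65.03%, 91.7% and 15.5% of all members. Igf2, a growth factor gene (chr7:142665816-142667816, 5′ end, 25 CpGs), went from 87.01% and 84.03% through 60.4% and 68.6% at day 25 to 77.4% and 86.2% in embryoid bodies. Tssc4 was at 6.72% and 8.29%, then 3.01% and 1.79%, and lost its call without N9 at t=0 (0.05493) or at day 25 (0.06171).

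Genes of differentiated tissues had medians of 65.6% to 71.5% in N5 at t=0 in the liver, muscle and blood lists. Beside their counts, 65.03%, 91.7% and 15.5% of all members fell to day 25, rose from there and rose over t=0. Among members with a wild-type mean of 60% or more, which are nearer in level, these shares were 83.7%, 98.9% and 12.8%. For endoderm and liver 19 of 22 members fell to day 25, all 22 rose in embryoid bodies and 3 rose over t=0. Ttr, the transthyretin gene, went in N5 and N9 from 66.5% and 73.6% through 38.99% and 42.95% at day 25 to 80.1% and 83.4% in embryoid bodies. For the same stages Apoa4, an apolipoprotein gene, was at 83.7% and 78.7%, 57.1% and 53.6% and 82.8% and 81.1%. For muscle and heart 17 of 19 fell, all 19 rose and 6 rose over t=0. Tnnc1, a troponin gene, was at 79.8% and 69.5%, 48.4% and 45.2% and 83% and 83.7%. For blood and immune cells 23 of 28 fell, all 28 rose and 6 rose over t=0. Gp9, a platelet glycoprotein gene, was at 84.6% and 81.4%, 60.3% and 56.8% and 87.02% and 87.5%. The median changes to day 25 were -18.71, -18.08 and -20.19 points, beside -13.73 for all members. In the centred fit the lists' median log2 odds were -0.5, -0.27 and -0.46, beside -0.26 for all members.

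In smaller lists the counts stand beside 65.03% of all members that fell to day 25 and 15.5% that rose over t=0. Of 6 trophoblast members 4 fell to day 25 and 2, Gata3 and Gcm1, rose over t=0. Elf5, a trophoblast transcription factor gene, was at 77.3% and 78.2% at t=0 and 42.9% and 58.3% at day 25, and Plet1 at 30.3% and 32.7% and 13.2% and 11.1%. Of 6 epithelial members 4 fell, among them the keratin genes Krt5 (-21.72 points) and Krt14 (-26.6), and Krt5 lost its call without N5 at t=0 (adjusted p = 0.06953). Of 4 neural members 2 fell. These were Th (-21.33 points, adjusted p = 0.07923 without N9 at t=0) and Gfap (-19.38 points, 0.0808 without N5 at t=0 and 0.06737 without N5 at day 25).

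Fibroblast genes were listed because feeder cells shared the cultures. Of 26 genes 13 were members: 3 fell to day 25 (S100a4, S100a6 and Thy1), all 13 rose from there, and 7 rose over t=0 (Acta2, Cd44, Col1a1, Col1a2, Mmp2, S100a4 and S100a6). The shares of all members were 65.03%, 91.7% and 15.5%. The median change was -7.26 points to day 25 and 14.88 from t=0 to embryoid bodies, beside -13.73 and 6.97 for all members. The day 25 direction of the list turned in the centred fit, from a median log2 odds of -0.64 to 0.21. Col1a1 (chr11:94935224-94937224, side not known, 44 CpGs, a collagen gene) was at 28.2%, 21.8%, 27.9% and 46.2% in N5 at the 4 stages in order, at 16.3%, 24.9%, 23.9% and 52.5% in N9 and at 19.4%, 10.8%, 8.06% and 45.5% in the wild type. The clones were above the wild type at days 10 and 25 and near it in embryoid bodies. S100a6 lost its fall without N5 at t=0 or at day 25 (adjusted p = 0.06053 and 0.06677), and Thy1 without these libraries or N9 at day 25 (0.06959 to 0.0846). The log2 odds of Thy1 was -1.28, and -0.06 with windows of 500 bp (adjusted p = 0.9752) and -0.27 with 2000 bp (0.3602). S100a6 had an adjusted p of 0.1276 at 500 bp. The list's median level in N5, N9 and the wild type was 42.8%, 29.3% and 24.9% at t=0 and 27.9%, 30.6% and 19.6% at day 25. No member was at 0 in any library, and the part of feeder DNA in these levels was not tested.

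Of 16 housekeeping genes 3 were members and 1 fell to day 25, beside 65.03% of all members. Of members with a wild-type mean under 20%, 38.4% fell. Actb (chr5:142906976-142908976, side not known, 25 CpGs) was at 33.8% and 37.1% at t=0 and 11.8% and 13.7% at day 25 (edgeR adjusted p = 0.0008069). Gapdh (chr6:125165467-125167467, 5′ end, 57 CpGs) was at 0.830%, 0.610%, 0.540% and 0.720% in N5 and 0.470%, 0.380%, 0.410% and 1.18% in N9, and Gusb at 7.64%, 6.51%, 6.35% and 16.3% and 8.84%, 6.25%, 9.07% and 8.87%, and neither passed (edgeR adjusted p = 0.6474 and 0.7784 to day 25). In the centred fit the day 25 direction also turned for the neural list (-0.74 to 0.11) and the housekeeping list (-0.44 to 0.44).

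**Figure D5:**
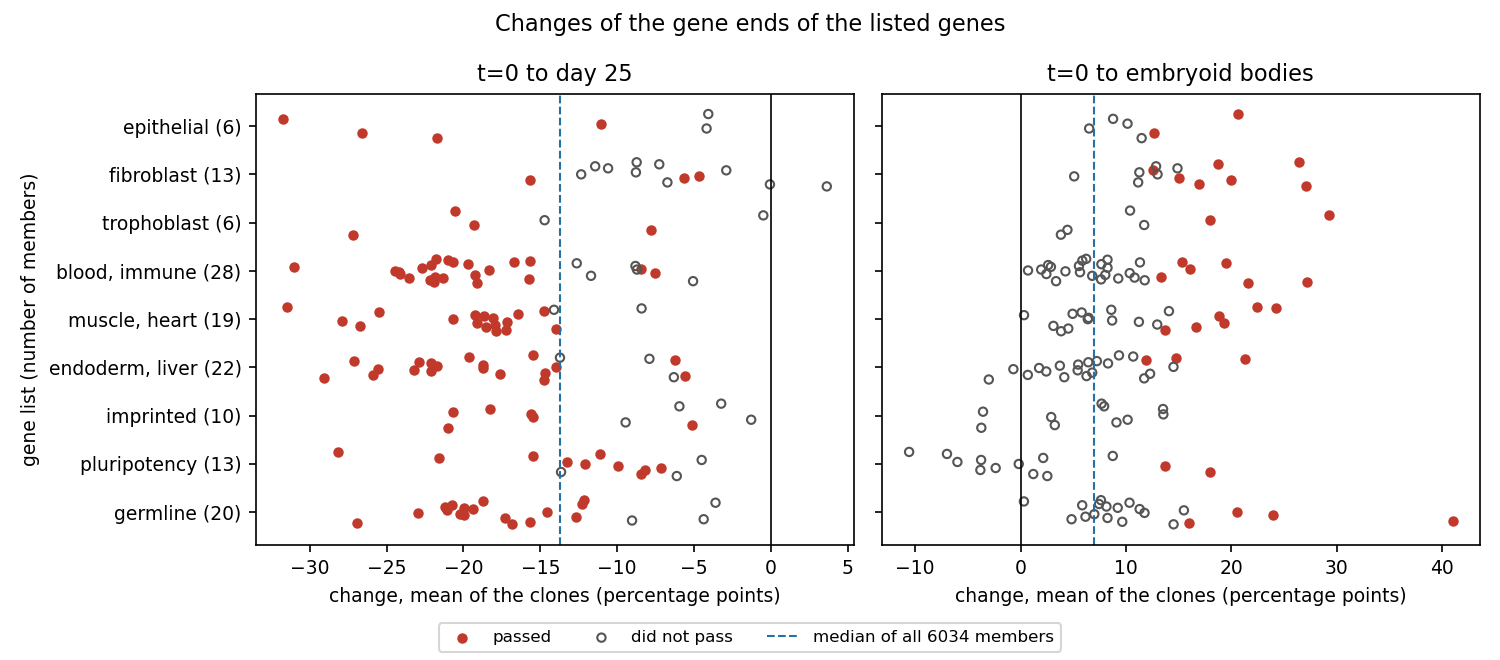
Change in methylation (percentage points, mean of the clones) from t=0 to day 25 and from t=0 to embryoid bodies for the members of 9 gene lists; each point is 1 gene, filled where it passed, and the dashed line is the median of all 6034 members (-13.73 and 6.97). The median of the fibroblast genes lies to the right of the line in both panels (-7.26 and 14.88), and that of the pluripotency genes to its left in the second (-0.18).

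Base composition beyond the CpG count also followed density. For 2854 members a RefSeq start lay inside the window. The bases from 250 before to 50 after that start were read, and these may reach past the window edge. Their median GC content was 49.7%, 52.7%, 54.3% and 57.0% from the lowest class to the highest, and the ratio of observed to expected CpG 0.23, 0.33, 0.46 and 0.59. That ratio was 0.13 at 5 to 19 CpGs and 0.82 at 60 or more.

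Short motifs were searched as exact letters on both strands. TATAAA, the core of a TATA box, was in 19.2%, 13.1%, 12.0% and 7.3% of these promoters by density class and in 14.1% of 27025 promoters in all. GGGCGG, the core of a GC box, was in 13.7%, 25.9%, 42.7% and 56.3% by class and 35.6% in all. CACGTG, an E-box, was in 5.8%, 6.8%, 7.4% and 9.2% by class and 7.1% in all, and GCGGGAA, an E2F-type motif, in 1.6%, 2.9%, 3.9% and 8.3% by class and 4.7% in all. The last 3 hold a CG and so share letters with the density itself. The 370 members with TATAAA had a median of 59.2% in N5 at t=0 and 41.8% at day 25, and the 2484 without it 27.3% and 17.1%. These medians pool density classes that differ in level and in their share with TATAAA, and the part of density was not tested. A match of letters is a description and not a bound site.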

How the data were processed

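Per the labels' protocols, 200 ng of DNA were oxidised and bisulfite treated with a TrueMethyl kit and sequenced on a HiSeq2500; the 24 samples are 12 libraries on 2 lanes each. The tools listed in the submitters' processing notes are BWA and Picard 1.91 with the build mm10; the methylation caller is not named there. Per the file headers the authors deposited, for each of 21875444 CpG positions, the count of methylated calls and the count of all calls, and libraries summed to 102896335 to 191210205 calls. The wild type has 2 columns a stage, which the headers name rep1 and rep2, and each clone has 1. The wild-type columns differed by less than sampling noise (mean chi-square per CpG 0.948 to 0.956, between clones 1.051 to 1.097). They were counted as 1 library, so the replicate label of the headers was not followed.

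Counts were summed over windows around gene ends of the RefSeq table. Methylated and unmethylated counts were fitted with edgeR 4.0.16 in R 4.3.3 (quasi-likelihood test, 4 residual degrees of freedom) over windows with 5 or more CpGs and 10 or more calls in every library. The script was tested on simulated data. Points are differences of percents, and the mean over clones weights them equally. Alternatives were limma 3.58.1 on logit values (pseudocount 0.5), as they were and centred, coverage minimums, other windows and density rules, leaving out chromosomes 8 and X or 1 clone library, and the clone as a block, alone or with the flow cell. Clones pair libraries across stages by label, as the same line; the N5 minus N9 difference correlated between stages at -0.016 to 0.039 over members. Tables and figures were made in Python 3.11.15 with pandas 2.3.3, scipy 1.17.1 and matplotlib 3.10.9.

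Genes named by size are members past the threshold with both clones moving alike: per density class and direction the 2 largest changes in points for comparisons between clone stages and the largest for the others, and from each gene list the 2 members with the lowest p to day 25 are named too, which in the housekeeping list takes in Gapdh, a gene that did not pass. Members and lists were chosen with earlier results of these data known. No label says that the clone libraries were repeated cultures, so p-values measure the spread between clones. Strand was known for 17274 of 21631 genes, and no genome was used here.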

Additional observations from a re-analysis of the deposited data

Results flagged for a closer look

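Clones and wild type changed unequally between stages by edgeR's test of the difference itself at 249 members from t=0 to day 25 and at 473 from day 25 to embryoid bodies. The wild type had 1 library a stage, and the values of N9 are within 1 flow cell. For the change to day 25, Mia2 differed by -55.7 points (N5 -55.75, N9 -55.64, adjusted p = 0.03315), with wild-type levels of 42.2% and 71.9%. Tpm3 differed by -57.37 points (N5 -55.2, N9 -59.54, adjusted p = 0.02897), in a window that overlaps another member. Gm37116 differed by -50.6 points (N5 -56.91, N9 -44.29, adjusted p = 0.02897). Olfr750 differed by -50.11 points (N5 -49.88, N9 -50.34, adjusted p = 0.02897), with wild-type levels of 50.6% and 72.9%.

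Without N9 at day 25 these 4 genes had adjusted p-values of 0.07638, 0.06608, 0.06189 and 0.06189, and without N5 at t=0 Mia2 had 0.06391. In limma, Gm37116, Mia2, Olfr750 and Tpm3 lost their calls (adjusted p from 0.09339 to 0.09976).

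For the change from day 25 to embryoid bodies, Tspoap1 differed by 54.73 points (N5 52.69, N9 56.76, adjusted p = 0.0009594). Casq2 differed by 59.05 points (N5 52.85, N9 65.24, adjusted p = 0.0007455), with wild-type levels of 45.4% and 33.8%. Gm37116 differed by 50.09 points (N5 51.14, N9 49.04, adjusted p = 0.007009). 1700071K01Rik differed by 47.58 points (N5 52.9, N9 42.26, adjusted p = 0.0009594). Ccna2 differed by -30.99 points (N5 -30.02, N9 -31.96, adjusted p = 0.02046), the cyclin A2 gene, where the wild type went from 5.96% to 43.3% and the clones from 9.32% and 13.5% to 16.6% and 18.8%. Ccna2 had an adjusted p of 0.05058 without N5 embryoid bodies and 0.06195 without N9 at day 25. Its log2 odds was -2.78, and -0.46 with windows of 500 bp (adjusted p = 0.8639) and -1.45 with 2000 bp (0.06799). In limma, Gm37116 lost its call (adjusted p = 0.05948). In 500 bp windows, Tspoap1 lost its call (adjusted p = 0.2148). In limma Ccna2 had 0.06034. The labels name doxycycline for the embryoid bodies of the clones and not for those of the wild type.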

How the results depend on the processing

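Counts of members called that moved by over 1.5 times are given here. With limma on logit values they were 1 for t=0 to day 10, 424 for t=0 to embryoid bodies, 0 for clones against wild type at t=0, 0 for the same at day 10, 475 for the same at day 25, 3 for the same in embryoid bodies, 0 for the difference of changes to day 25, 142 for the difference of changes from there to embryoid bodies. With these values centred on each library's median they were 1 for t=0 to day 10, 0 for t=0 to day 25, 130 for day 25 to embryoid bodies, 0 for t=0 to embryoid bodies, 0 for clones against wild type at t=0, 0 for the same at day 10, 10 for the same at day 25, 2 for the same in embryoid bodies, 0 for the difference of changes to day 25, 1 for the difference of changes from there to embryoid bodies. With windows of 500 bp either side they were 26 for t=0 to day 10, 2173 for t=0 to day 25, 29 for clones against wild type at t=0, 14 for the same at day 10, 448 for the same at day 25, 16 for the same in embryoid bodies, 1 for the difference of changes to day 10, 120 for that to day 25, 262 for that to embryoid bodies, and with 2000 bp 2 for t=0 to day 10, 1561 for t=0 to embryoid bodies, 6 for clones against wild type at t=0, 2141 for the same at day 25, 1546 for the difference of changes to day 25, 1198 for the difference of changes from there to embryoid bodies. Without chromosomes 8 and X they were 0 for t=0 to day 10, 0 for clones against wild type at t=0, 0 for the same at day 10. Density counted over CpGs called in every library gave 4 for t=0 to day 10. Leaving out 1 clone library at a time gave 0 to 15 for t=0 to day 10, 2362 to 2459 for t=0 to day 25, 191 to 378 for t=0 to embryoid bodies, 0 to 5 for clones against wild type at t=0, 1 to 4 for the same at day 10, 350 to 439 for the same at day 25, 3 to 4 for the same in embryoid bodies, 0 to 1 for the difference of changes to day 10, 5 to 74 for that to day 25, 239 to 348 for that to embryoid bodies. The cause of these shifts was not tested.

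With the clone as a replicate block the counts were 7, 3950, 5539, 963, 12, 0, 797, 7, 0, 231 and 493 for the 4 comparisons between stages, the 4 with the wild type and the 3 differences in turn, and the pairing ended the calls named in the report and no other named call. With block and flow cell together they were 2 for t=0 to day 10, 1 for clones against wild type at t=0, 10 for the same at day 10, 345 for the same at day 25, 1 for the same in embryoid bodies, 596 for the difference of changes to day 25, 710 for the difference of changes from there to embryoid bodies. Of 83 named results 22 lost their call in limma, 68 in the centred fit and 0 with a coverage minimum of 30. The log2 odds of Gapdh to day 25 turned to 0.44 in the centred fit, and 1.29 at 500 bp, and ran from -0.72 to 0.05 with 1 clone library left out, the positive value being without N5 at t=0, and those of Grin2b at t=0 to 0.24 at 500 bp. Wild-type libraries could not be left out, since each stage has 1.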

Other observations

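Gene families, taken by the start of the symbol, differed in level and in how many members passed. Of 163 zinc finger (Zfp) gene ends 70 fell to day 25, 107 rose from there and 6 rose over t=0, with medians of 12.8% in N5 and 10.9% in N9 at t=0. Keratin genes (Krt) were at 72.6% and 69.4%, and 40 of 48 fell. Beside 65.03% of all members and 40.2% of all windows tested, the fall passed at 25 of 28 orphan receptor genes (Gpr), 12 of 14 claudin genes (Cldn), 13 of 15 phospholipase genes (Pla2g), 86 of 135 solute carrier genes (Slc) and 30 of 43 interleukin and receptor genes (Il). Potassium channel genes (Kcn) had 12 of 35 falls, 34 rises after day 25 and 9 rises over t=0. Cadherin genes (Cdh) had a median change of 11.7 points from t=0 to embryoid bodies and 6 of 12 rose, and collagen genes (Col) had 11.1 points and 7 of 22. For all members the median was 6.97 points, 15.5% rose over t=0 and 91.7% rose after day 25. The fall to day 25 passed in 38.4% of members with a wild-type mean under 20% and 83.7% of those at 60% or more. Families were counted without a test and may share reads or sequence.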
